A study of Mus musculus with 11 samples.

Results

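The 10 genes examined here were Rag1, Rag2, Dntt, Xrcc6, Xrcc5, Prkdc, Dclre1c, Lig4, Xrcc4 and Nhej1, chosen by name as those whose products cut the antigen receptor genes during V(D)J recombination and rejoin the broken ends. Each symbol matched 1 of the 54418 genes in the table of counts, and all 10 passed the filter on low counts in every comparison. RNA was sequenced from thymus cell suspensions of mice on a C57BL/6-WEHI background that were 8 to 12 weeks old. The groups were 4 wt mice, 4 Zmat3-/- mice and 3 Puma-/-p21-/-Zmat3-/- mice (TKO, made by crossing Zmat3-/- with Puma-/-p21-/- animals). ZMAT3 is an RNA-binding protein, PUMA (gene Bbc3) drives apoptosis and p21 (gene Cdkn1a) arrests the cell cycle, and all are encoded by TRP53 target genes. The suspensions were not sorted, so fewer cells of a type and less RNA per cell cannot be told apart.

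Developing T cells assemble their receptor genes from separate V, D and J segments. The RAG1 and RAG2 proteins form the recombinase that cuts at the edges of the segments, the Ku heterodimer (XRCC6 and XRCC5) caps the ends and recruits the kinase DNA-PKcs (PRKDC), Artemis (DCLRE1C) opens the hairpins that RAG leaves, TdT (DNTT) adds bases without a template, and LIG4 with XRCC4 and XLF (NHEJ1) seals the joint. In the thymus this runs in double-negative cells at the Tcrb locus and in the far more numerous double-positive cells at the Tcra locus, and breaks that remain open activate TRP53.

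The libraries held 17669715 to 80207003 counts. Cd4 was at 968 to 1320.2 and Cd8a at 1506 to 2059 CPM (counts scaled to library size, here with TMM factors), high in every mouse. Both are expressed by double-positive thymocytes, but not by them alone. The targeted gene Zmat3 was counted at 9.81 to 27.4 CPM in wt, 5.33 to 6.91 in Zmat3-/- animals and 7.504 to 8.13 in TKO mice. Bbc3 was at 17.0 to 19.8, 15.3 to 19.98 and 11.9 to 15.8 CPM in those groups and Cdkn1a at 3.58 to 10.2, 4.81 to 8.61 and 2.26 to 3.55 CPM, so all remained countable in TKO mice. Libraries wt 1 and wt 2 stood apart from the other 9 along transcript length. Relative to the mean of all mice, the median gene with a transcript over 8 kb was at a log2 of −0.86 in wt 1 and −0.68 in wt 2, against 0.29 in both wt 3 and wt 4 and 0.03 to 0.30 in the 7 mutant mice. Genes under 1 kb were at 0.70 and 0.45 in wt 1 and wt 2 and at −0.28 to 0.02 in the other 9 mice. Xist, which is transcribed from the inactive X chromosome, was at 501 CPM in wt 1 and 611 CPM in wt 2 and at 1.73 and 2.6 CPM in wt 3 and wt 4, so the 2 wt pairs differed in Xist as well. It was at 1098 to 1498 CPM in Zmat3-/- mice 1 and 2 and TKO mouse 1, whose libraries did not show the deficit of long transcripts, and at 0.733 to 2.21 CPM in the other 4 mutant mice. A fit without a wt pair therefore compared wt mice of 1 Xist class with mutant mice of both, and within the wt group Xist and the deficit cannot be told apart. Since 2 of the 4 wt libraries carried it, the comparisons with wt are also given without these libraries, without the other wt pair, and with the length trend of each library removed.

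Per kb of transcript, the genes of the lymphocyte-restricted steps were far more abundant than most of the repair genes. Dntt had a mean of 768 CPM per kb over the 11 mice and Rag1 637, which placed them above 99.6% and 99.4% of the 13619 genes compared. Ku70 (Xrcc6) followed at 108, Rag2 at 53.9, Lig4 at 20.9, Ku80 (Xrcc5) at 11.01, Dclre1c at 9.66, Xrcc4 at 5.42, Prkdc at 5.02 and Nhej1 at 4.86 CPM per kb. The order from Rag1 to Xrcc6 to Rag2 to Lig4 to Xrcc5 held in all 11 mice. Dntt and Rag1 overlapped, with Dntt higher in 8 of 11 mice, Dclre1c overlapped with both Xrcc5 and Xrcc4, and Xrcc4, Prkdc and Nhej1 overlapped with each other. The partners of a complex were not at equal levels: Rag1 was 11.8 times as abundant as Rag2 per kb (4.43 to 18.2 times in single mice), and Xrcc6 was 9.79 times as abundant as Xrcc5 (8.04 to 13.0 times). With the union of all exons in place of the longest transcript the order of the first 7 genes was the same, and Xrcc4 moved to the last place. Xrcc6 was then at 79.4 against 11.01 CPM per kb for Xrcc5, a smaller gap, and Rag1 and Rag2 were unchanged at 637 and 53.9.

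**Figure D1:**
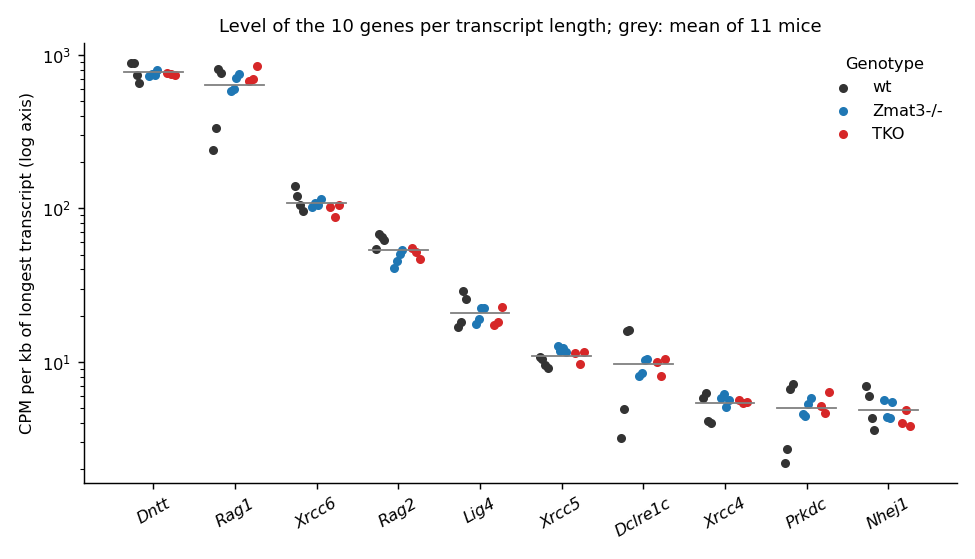
Level of each gene in CPM per kb of its longest transcript on a log axis, one point per mouse coloured by genotype, with the mean of all 11 mice as a grey line. Dntt and Rag1 lay highest at means of 768 and 637, and Xrcc4, Prkdc and Nhej1 lay together near 5 CPM per kb.

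Rag1 and Rag2 are neighbours on chromosome 2 of GRCm38, Rag1 (ENSMUSG00000061311) at chr2:101638282-101649501 on the minus strand and Rag2 (ENSMUSG00000032864) at chr2:101624718-101632529 on the plus strand. Both lie within the span of B230118H07Rik, which was counted at 16.3 to 34.8 CPM. The library kit does not mark strand, so reads from exons that overlap cannot be told apart, which also touches Xrcc6 with Desi1 (225 to 302 CPM), Xrcc4 with Tmem167 (54.7 to 71.0 CPM) and Dclre1c with Suv39h2 (9.26 to 16.4 CPM). Dntt (ENSMUSG00000025014) lies at chr19:41029275-41059525, Xrcc6 (ENSMUSG00000022471) at chr15:81987835-82040085, Xrcc5 (ENSMUSG00000026187) at chr1:72307421-72394952 and Prkdc (ENSMUSG00000022672) at chr16:15637866-15842235, all on the plus strand. Dclre1c (ENSMUSG00000026648) lies on the plus strand at chr2:3424131-3464130. Lig4 (ENSMUSG00000049717) at chr8:9969049-9977686, Xrcc4 (ENSMUSG00000021615) at chr13:89774027-90089608 and Nhej1 (ENSMUSG00000026162) at chr1:74967139-75125200 lie on the minus strand.

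The promoters of the lymphocyte-restricted genes held fewer CG dinucleotides than those of the repair genes listed here. CG is scarce at many tissue-restricted promoters and frequent at CpG islands. In RefSeq's table for GRCm38.p6, which holds 9 of the 10 genes but not Prkdc, the 300 bases around the start, most of them upstream, held 3 CG in Rag1, 3 in Rag2 and 2 in Dntt, against a median of 7 over all 32851 promoters. Xrcc4 had 31, Xrcc6 30 and Lig4 30 and 29 at its 2 listed starts, while Xrcc5 had 9, Nhej1 10 and Dclre1c 12. The E-box letters CANNTG, which read the same on both strands and are searched because E proteins are known to act at the Rag genes, occurred 4 times in Rag1, 3 times in Dntt and 2 times in Rag2. They occurred 2 times in Xrcc5, Dclre1c and each listed start of Lig4, 1 time in Xrcc6 and Nhej1 and 0 times in Xrcc4. Of all promoters, 72.3% held at least 1 and 17.6% held 3 or more, so these counts describe the windows and mark no site. The sequences of the 3 lymphocyte genes and of the LIG4 and XRCC4 partners are shown for this contrast, 5′ to 3′ on the gene's strand with each CG in capitals. They are at chr2:101649483-101649782 (minus strand), chr2:101624462-101624761 (plus), chr19:41029025-41029324 (plus), chr8:9977631-9977930 (minus) and chr13:90089559-90089858 (minus).
Rag1 promoter: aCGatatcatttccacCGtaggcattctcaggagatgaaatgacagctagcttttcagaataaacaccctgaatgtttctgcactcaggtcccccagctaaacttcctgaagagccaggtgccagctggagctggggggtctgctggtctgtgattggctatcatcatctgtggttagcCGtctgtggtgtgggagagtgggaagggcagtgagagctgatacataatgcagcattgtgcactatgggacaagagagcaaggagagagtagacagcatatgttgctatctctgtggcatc
Rag2 promoter: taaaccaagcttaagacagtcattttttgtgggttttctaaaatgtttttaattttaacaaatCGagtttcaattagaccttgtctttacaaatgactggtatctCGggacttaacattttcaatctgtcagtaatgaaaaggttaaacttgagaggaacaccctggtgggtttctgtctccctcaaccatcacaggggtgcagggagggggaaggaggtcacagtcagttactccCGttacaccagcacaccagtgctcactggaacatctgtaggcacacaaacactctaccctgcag
Dntt promoter: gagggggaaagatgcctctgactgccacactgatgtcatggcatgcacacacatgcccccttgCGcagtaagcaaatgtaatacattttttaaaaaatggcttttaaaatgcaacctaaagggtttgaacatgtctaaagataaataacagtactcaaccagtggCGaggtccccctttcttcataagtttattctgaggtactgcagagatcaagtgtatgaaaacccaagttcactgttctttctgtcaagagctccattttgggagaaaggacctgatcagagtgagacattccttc
Lig4 promoter: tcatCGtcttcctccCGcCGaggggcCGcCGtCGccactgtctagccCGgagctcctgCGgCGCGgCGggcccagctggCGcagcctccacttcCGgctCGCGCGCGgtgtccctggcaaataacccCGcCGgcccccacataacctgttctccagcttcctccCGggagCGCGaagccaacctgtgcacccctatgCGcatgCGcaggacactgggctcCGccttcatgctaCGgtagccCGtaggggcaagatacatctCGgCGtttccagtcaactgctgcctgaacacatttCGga
Xrcc4 promoter: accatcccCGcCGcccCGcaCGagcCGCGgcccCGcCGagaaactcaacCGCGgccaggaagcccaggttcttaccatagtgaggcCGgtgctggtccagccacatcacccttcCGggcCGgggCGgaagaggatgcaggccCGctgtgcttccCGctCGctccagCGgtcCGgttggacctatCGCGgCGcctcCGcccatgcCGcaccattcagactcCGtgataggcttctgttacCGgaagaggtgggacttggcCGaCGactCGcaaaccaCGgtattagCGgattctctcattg

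None of the 10 genes differed between genotypes past the threshold of edgeR's quasi-likelihood test (adjusted p under 0.05, Benjamini-Hochberg over all genes tested) in any of the 3 comparisons. In TKO against wt mice 0 of 10 were called where 0.294% of 13260 genes were. In Zmat3-/- against wt mice 0 of 10 were called where 0.763% of 13494 genes were, and in TKO against Zmat3-/- mice 0 of 10 where 0.221% of 13124 genes were. At an unadjusted p under 0.05 the counts were 0, 2 (Rag2 and Xrcc5) and 0 of 10, beside 10.3%, 16.1% and 4.49% of all genes. DESeq2 called 0, 2 and 0 of 10, beside 2.87%, 8.04% and 0.556% of all genes, the 2 again being Rag2 and Xrcc5. The median log2FC of the 10 genes was −0.09, −0.07 and −0.04, and that of all genes −0.04, −0.03 and −0.01. Both comparisons with wt used the same 4 wt mice. The labels do not say that mice of a genotype came from separate litters or preparations, so p-values measure the spread between these mice.

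Rag1 had the widest swing of the recombinase genes, and it was within the wt group. It was at 1592, 2209, 5354 and 5056 CPM in wt mice 1 to 4, 3839, 3975, 4692 and 4967 CPM in Zmat3-/- mice 1 to 4 and 4426, 4572 and 5607 CPM in TKO mice 1 to 3. The first 2 wt mice were below every mutant mouse, and the last 2 were among the highest of all. The log2FC was 0.44 (SE 0.436, adjusted p = 0.705, edgeR) in TKO and 0.30 (SE 0.382, adjusted p = 0.71, edgeR) in Zmat3-/- against wt mice. With 1 wt mouse left out these moved between 0.19 (without wt 1) and 0.70 (without wt 3) and between 0.06 and 0.56, and with mice blocked by replicate number the value in TKO mice was 0.85. With 1 surrogate variable, a factor estimated from the counts of all genes, Rag1 was called higher at 0.44 in TKO (adjusted p = 0.0163, edgeR) and 0.33 in Zmat3-/- mice (adjusted p = 0.00229, edgeR), beside 17.9% and 37.8% of all genes called.

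Rag2, the partner that RAG1 needs for cutting, was lower in Zmat3-/- than in wt mice without overlap, at an adjusted p of 0.172 (edgeR). It was at 186, 231, 223 and 213 CPM in wt, 140.0, 155, 172 and 185 CPM in Zmat3-/- and 188, 177 and 159 CPM in TKO mice. Every Zmat3-/- mouse was below every wt mouse, the closest pair being almost level, and of the TKO mice only the first reached the lowest wt value. In Zmat3-/- against wt mice the log2FC was −0.39 (SE 0.121, adjusted p = 0.172, edgeR), and groups failed to overlap in 13.9% of all genes tested and in 6.91% with Zmat3-/- lower. In TKO against wt mice it was −0.30 (SE 0.138, adjusted p = 0.507, edgeR), and none of the 10 genes had groups without overlap, beside 13.8% of all genes (6.78% higher and 7.02% lower in TKO). Unlike Rag1, Rag2 did not divide the wt mice by library. Its log2FC stayed negative in all 20 fits of TKO and all 21 fits of Zmat3-/- against wt mice, between −0.36 and −0.22 and between −0.45 and −0.32. These fits reuse the same mice, so a constant sign is not repeated evidence. The share of all genes that kept their sign throughout was not counted.

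Dntt, whose enzyme diversifies the joints, was nearly level across the mutant mice. It was at 1891, 1886, 1572 and 1401 CPM in wt, 1548, 1601, 1582 and 1708 CPM in Zmat3-/- and 1631, 1600.2 and 1564 CPM in TKO mice. The mutant values all fell inside the wt range. The log2FC was −0.09 (SE 0.183) in TKO and −0.07 (SE 0.141) in Zmat3-/- against wt mice, and with the length trend removed it was 0.08 in both.

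**Figure D2:**
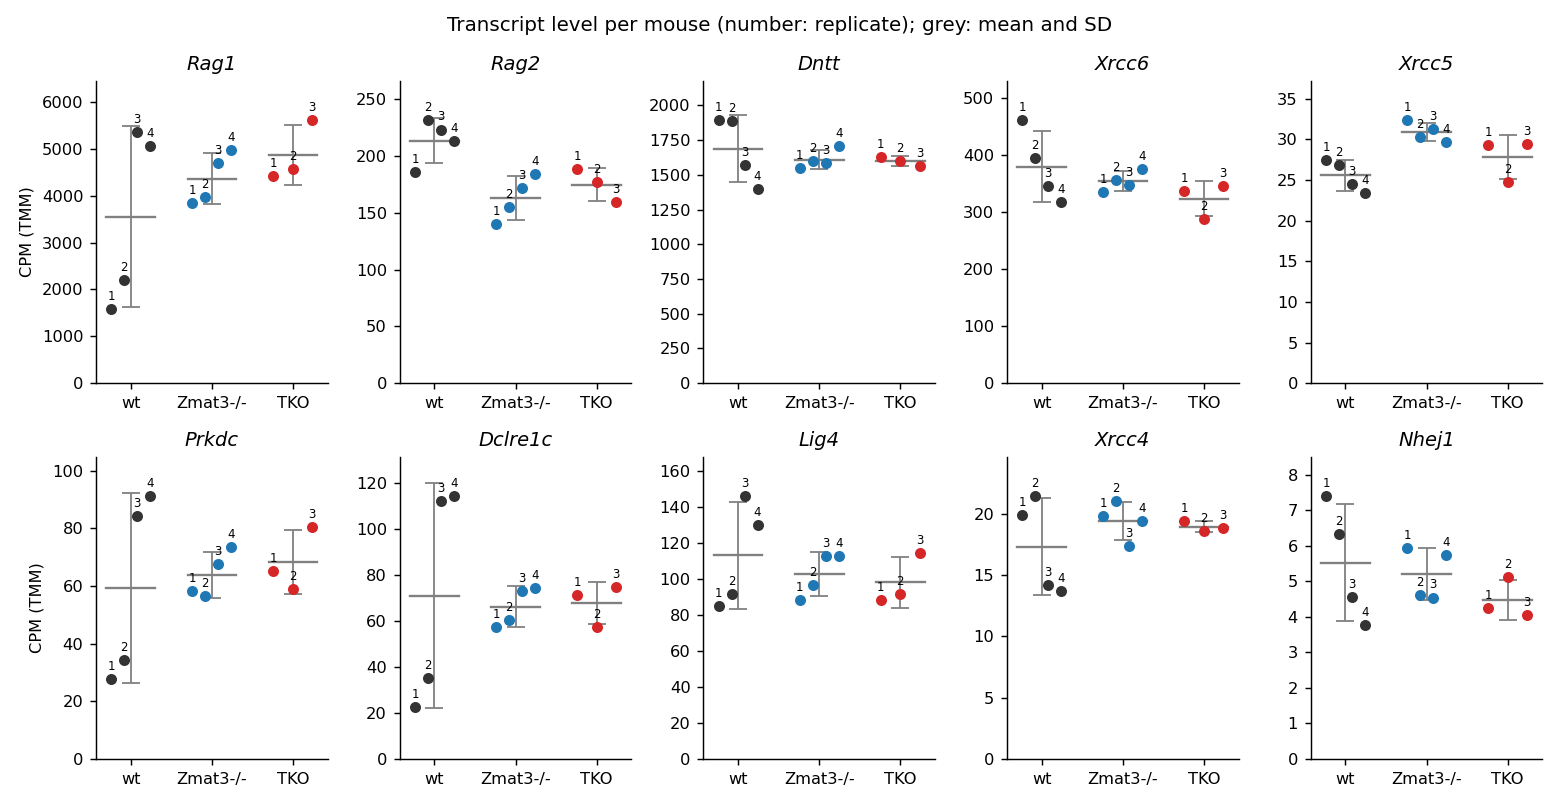
Level of each gene in CPM after TMM scaling (vertical axis from 0) in every mouse, with points numbered by replicate and the mean and SD of each genotype in grey. Mice wt 1 and wt 2 lay below all other mice for Rag1, Prkdc and Dclre1c and above them for Dntt, Xrcc6 and Nhej1. Mice wt 3 and wt 4 lay below all other mice for Xrcc4 and, by a small margin, Xrcc5, and above them for Prkdc, Dclre1c and Lig4.

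The Ku subunits differed in their pattern over the genotypes. Xrcc5 (Ku80) was at 27.5, 26.9, 24.6 and 23.4 CPM in wt, 32.3, 30.3, 31.3 and 29.7 CPM in Zmat3-/- and 29.3, 24.7 and 29.5 CPM in TKO mice. All Zmat3-/- mice were above all wt mice and also, by a small margin, above all TKO mice, whereas TKO mouse 2 lay inside the wt range. In Zmat3-/- against wt mice the log2FC was 0.28 (SE 0.0919, adjusted p = 0.198, edgeR), with 7.04% of all genes not overlapping in that direction. It was 0.11 (SE 0.132) in TKO against wt mice and −0.17 (SE 0.0848, adjusted p = 0.983, edgeR) in TKO against Zmat3-/- mice, where 5.65% of all genes did not overlap (2.44% lower and 3.21% higher in TKO). The sign against wt was positive in all 20 and all 21 fits, which reuse the same mice, at 0.02 to 0.22 and 0.18 to 0.38. Xrcc6 (Ku70) was at 461, 395, 345 and 319 CPM in wt, 336, 357, 348 and 377 CPM in Zmat3-/- and 338, 288 and 345 CPM in TKO mice. These ranges overlapped between all genotypes, with wt 1 and wt 2 above all other mice. The log2FC of Xrcc6 was −0.25 (SE 0.174) in TKO and −0.10 (SE 0.133) in Zmat3-/- against wt mice.

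The kinase and the nuclease that act on the ends behaved like Rag1. Prkdc was at 27.8, 34.5, 84.3 and 91.2 CPM in wt, 58.4, 56.4, 67.6 and 73.4 CPM in Zmat3-/- and 65.3, 59.0 and 80.5 CPM in TKO mice. Dclre1c was at 22.7, 35.2, 112 and 114 CPM in wt, 57.1, 60.2, 73.0 and 74.3 CPM in Zmat3-/- and 71.2, 57.4 and 74.5 CPM in TKO mice. For both genes every mutant mouse lay in the gap between the low and the high wt pair. The log2FC of Prkdc was 0.19 (SE 0.422) in TKO and 0.11 (SE 0.373) in Zmat3-/- against wt mice, and that of Dclre1c was −0.08 (SE 0.546) and −0.10 (SE 0.483).

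Of the ligation complex, Lig4 and Xrcc4 divided the wt mice in opposite directions. Lig4 was at 84.9, 91.3, 146 and 129.8 CPM in wt, 88.3, 96.4, 113 and 113 CPM in Zmat3-/- and 88.1, 91.7 and 114 CPM in TKO mice. Xrcc4, the scaffold that stabilises LIG4, was at 19.9, 21.4, 14.2 and 13.7 CPM in wt, 19.9, 21.1, 17.4 and 19.4 CPM in Zmat3-/- and 19.4, 18.6 and 18.9 CPM in TKO mice. Mice wt 3 and wt 4 had the highest Lig4 and the lowest Xrcc4 of all 11 mice. Nhej1 (XLF), which bridges the ends beside XRCC4, rested on 88 to 331 counts per library and was at 7.39, 6.33, 4.55 and 3.78 CPM in wt, 5.93, 4.61, 4.54 and 5.74 CPM in Zmat3-/- and 4.24, 5.11 and 4.05 CPM in TKO mice. Against wt, the log2FC of Lig4, Xrcc4 and Nhej1 was −0.22, 0.11 and −0.33 in TKO mice (SE 0.217, 0.196 and 0.285) and −0.14, 0.17 and −0.08 in Zmat3-/- mice (SE 0.19, 0.167 and 0.236).

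The spread within the wt group ranged from narrow to very wide among the 10 genes and followed transcript length in part. The log2 range over the 4 wt mice was 2.33 for Dclre1c (longest transcript 7075 bases), 1.75 for Rag1 (6608 bases) and 1.71 for Prkdc (12647 bases), and 0.23 for Xrcc5 (2555 bases) and 0.31 for Rag2 (3424 bases). In the mutant groups no gene ranged over more than 0.45. With the length trend of each library removed, the wt range of Prkdc fell to 0.35, of Nhej1 (1053 bases) from 0.96 to 0.27 and of Lig4 (5028 bases) from 0.78 to 0.36. On the same adjusted scale the range was 0.27 in Zmat3-/- and 0.23 in TKO mice for Prkdc, 0.38 and 0.25 for Nhej1 and 0.30 and 0.27 for Lig4, so Prkdc and Lig4 still ranged wider in wt mice. Rag1 and Dclre1c kept wt ranges of 1.03 and 1.55, and Xrcc4 and Xrcc6 hardly moved, from 0.64 to 0.62 and from 0.53 to 0.48. After this adjustment Dclre1c was at 34.4 and 48.2 CPM in wt 1 and wt 2 and at 97.9 and 100.6 CPM in wt 3 and wt 4, with the mutant mice between 54.3 and 68.9 CPM. What the remaining wt spread of Rag1 and Dclre1c came from was not tested.

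**Figure D3:**
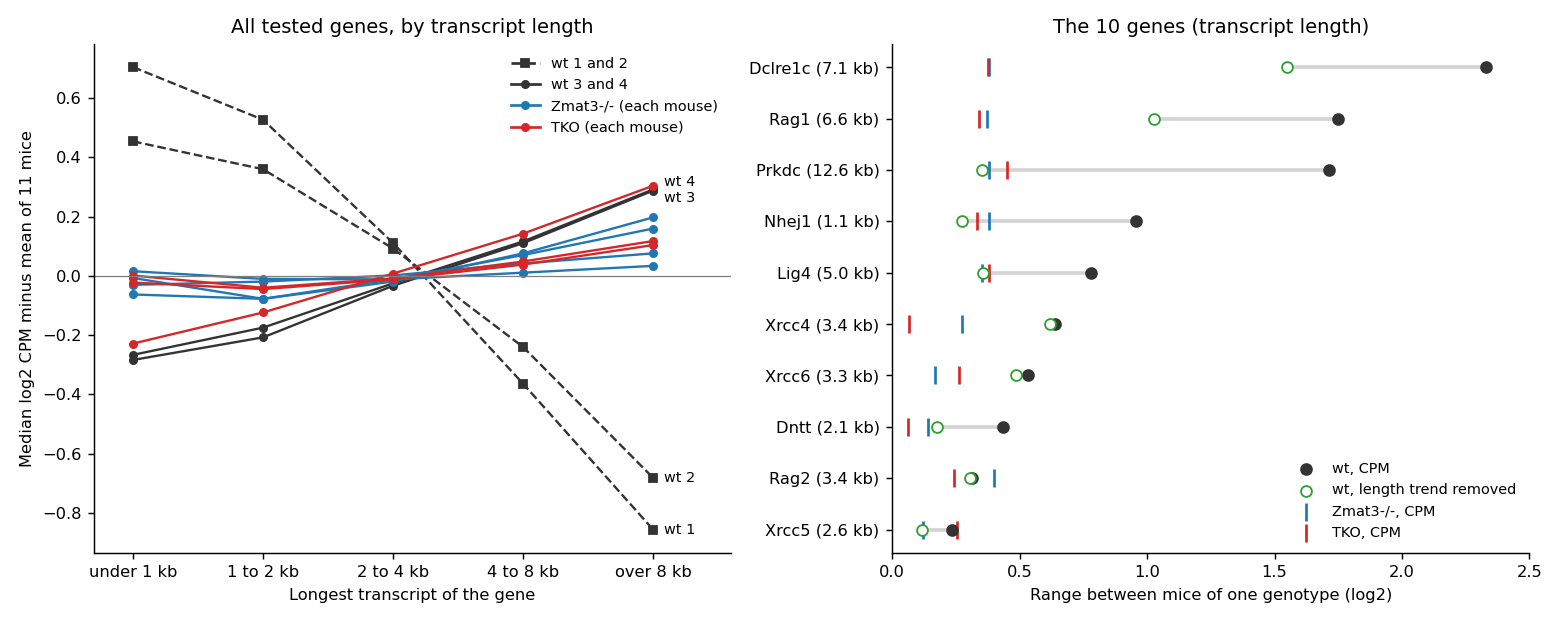
Left, median log2 CPM of all tested genes relative to the mean of 11 mice in 5 classes of transcript length, one line per mouse. Right, log2 range of each gene between the mice of one genotype, before (filled) and after (open) removal of the length trend in wt and as measured in the mutant groups; Prkdc closed from 1.71 to 0.35 while Dclre1c stayed at 1.55.

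The direction of many genes against wt changed with the wt pair used. Between the fit without wt 1 and wt 2 and that without wt 3 and wt 4, the log2FC had opposite signs in 7 of 10 genes in TKO and 8 of 10 in Zmat3-/- mice, beside 55.0% of 13124 and 57.4% of 13829 genes, and Rag2 and Xrcc5 kept their sign in both comparisons. Without wt 1 and wt 2, edgeR called 6 of 10 genes in Zmat3-/- against wt mice, beside 33.0% of all genes (17.5% higher and 15.5% lower): Xrcc4 was higher (log2FC 0.49), as was Xrcc5 (0.38), and Rag2 (−0.41), Lig4 (−0.42), Prkdc (−0.45) and Dclre1c (−0.77) were lower. In TKO against wt mice 2 of 10 were then called, Lig4 (−0.50) and Dclre1c (−0.75), beside 8.15% of all genes (2.96% higher and 5.19% lower). Without wt 3 and wt 4, 6 of 10 were called in Zmat3-/- mice beside 56.1% of all genes (27.4% higher and 28.7% lower) and 4 of 10 in TKO mice beside 43.6% (22.0% and 21.7%), with Dclre1c higher (1.18 and 1.21), Rag1 higher (1.19 and 1.34), Prkdc higher (1.03 and 1.12) and Xrcc6 lower (−0.28 and −0.42) in both, and Rag2 (−0.37) and Dntt (−0.24) lower in Zmat3-/- mice. Dclre1c and Prkdc thus passed the threshold in opposite directions in the Zmat3-/- comparison, and Rag2 was called lower in both fits. The fits share all Zmat3-/- mice. How many of all genes were called in both fits, in the same or in opposite directions, was not counted. With the length trend as an offset and all mice kept, 1 of 10 was called in Zmat3-/- against wt mice, Xrcc5 (log2FC 0.37, SE 0.0668, adjusted p = 0.0297, edgeR), beside 3.38% of all genes, and Rag2 was at −0.38 (SE 0.103, adjusted p = 0.0836, edgeR). In TKO against wt mice 0 of 10 were called with this offset, beside 0.618% of all genes. With the surrogate variable 2, 5 and 0 of 10 were called in the 3 comparisons, beside 17.9%, 37.8% and 0.267% of all genes. They were Rag1 (0.44 in TKO and 0.33 in Zmat3-/- against wt mice) and Lig4 (−0.27 and −0.17) in both comparisons with wt, and Rag2 (−0.40), Xrcc4 (0.25) and Xrcc5 (0.30) in Zmat3-/- mice. The fits with the offset or without a wt pair were chosen after the libraries had been seen.

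**Figure D4:**
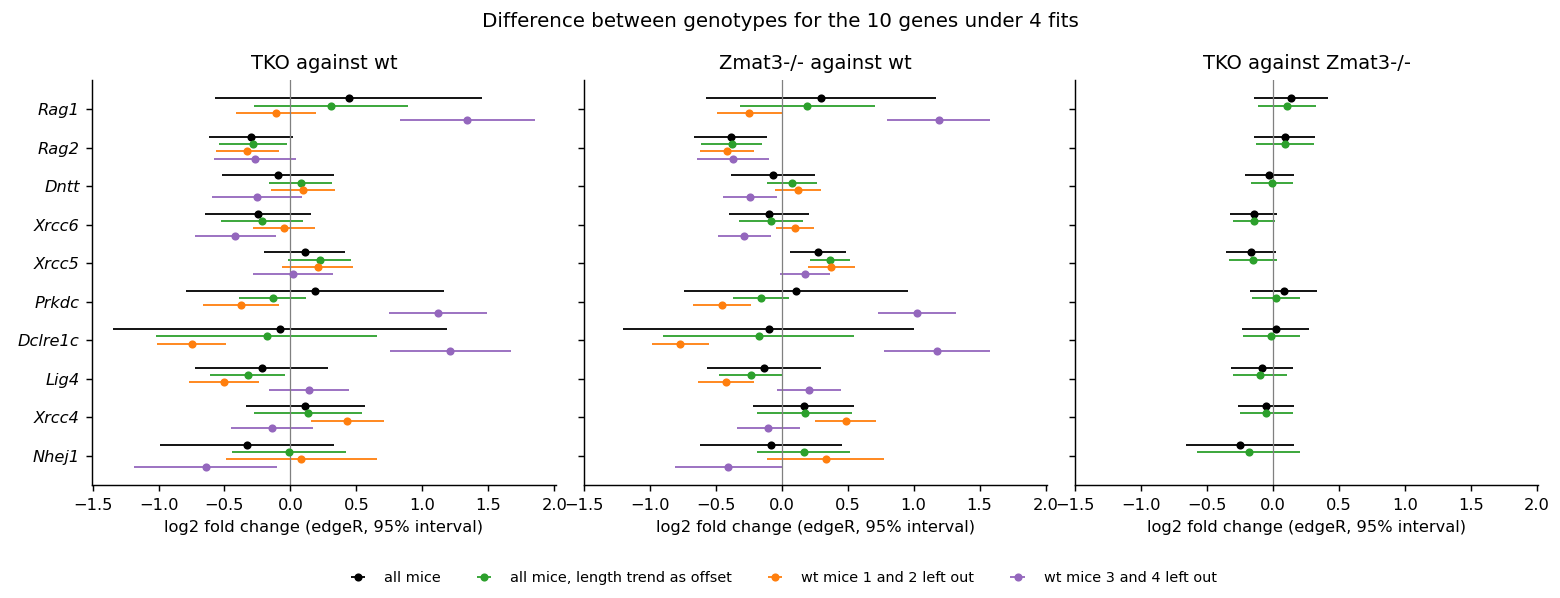
Log2 fold change with its 95% interval for each gene in the 3 comparisons, from edgeR on all mice (black), with the length trend as an offset (green), without wt 1 and wt 2 (orange) and without wt 3 and wt 4 (purple). Rag2 stayed below 0 against wt in all 4 fits and Xrcc5 above 0, while Rag1, Prkdc and Dclre1c changed sign with the wt pair used.

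The comparison of TKO with Zmat3-/- mice does not involve wt libraries and bounds the difference between mice with and without Puma and p21 on a Zmat3-/- background. The log2FC of the 10 genes was −0.25 to 0.14, and all 95% intervals lay between −0.66 and 0.42. For Dntt the interval was −0.21 to 0.16, for Rag1 −0.15 to 0.42, for Rag2 −0.14 to 0.32 and for Prkdc −0.17 to 0.33. Nhej1, the gene with the fewest counts, had the widest, −0.66 to 0.16. Against wt the intervals were wider, from −0.57 to 1.45 for Rag1 and −1.34 to 1.19 for Dclre1c in TKO mice, so a doubling of either gene could not have been told from no change.

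Ratios of partner genes within a library do not depend on scaling between libraries. The log2 ratio of Xrcc5 to Xrcc6 counts was −3.88 ± 0.132 (SD, n = 4) in wt, −3.52 ± 0.122 (SD, n = 4) in Zmat3-/- and −3.54 ± 0.0123 (SD, n = 3) in TKO mice. All 7 mutant mice were above all 4 wt mice, by a mean of 0.36 in Zmat3-/- and 0.34 in TKO. Each had p = 0.0286 in a two-sided exact permutation test, the smallest p that these group sizes allow, and adjusted p = 0.0857 over 9 tests. Both comparisons used the same wt mice. How often ratios of other gene pairs separate the groups was not examined. The differences were 0.27 and 0.25 without wt 1 and wt 2, 0.45 and 0.43 without wt 3 and wt 4, and with the length trend removed 0.44 (exact permutation p = 0.0286) and 0.42 (exact permutation p = 0.0571). Without wt 1 alone the difference in Zmat3-/- mice was 0.30 and missed the threshold (exact permutation p = 0.0571), and in TKO mice no comparison with a mouse left out could pass it. The ratio of Rag1 to Rag2 was 3.096 and 3.25 in wt 1 and wt 2, 4.58 and 4.57 in wt 3 and wt 4, 4.68 to 4.78 in Zmat3-/- animals and 4.55 to 5.14 in TKO mice. Zmat3-/- mice were above wt mice by a mean of 0.87 (p = 0.0286, exact permutation, adjusted p = 0.0857), by 0.17 without wt 1 and wt 2, by 1.57 without wt 3 and wt 4 and by 0.63 with the length trend removed. With any 1 Zmat3-/- mouse left out this difference no longer passed the test (0.86 to 0.89, exact permutation p = 0.171, where 0.0286 was the smallest possible). TKO mice were above wt mice by a mean of 0.92, which did not pass the test (p = 0.2, exact permutation, adjusted p = 0.45), and by 0.22, 1.62 and 0.65 in the same order of alternatives. For Lig4 to Xrcc4 the ratio was 2.09 in both wt 1 and wt 2, 3.36 and 3.24 in wt 3 and wt 4 and 2.15 to 2.69 in the mutant mice, and the mean differed from wt by −0.30 in Zmat3-/- and −0.33 in TKO mice (exact permutation p = 0.457 for either). These were −0.91 and −0.94 without wt 1 and wt 2 (exact permutation p = 0.0667 and 0.1, the smallest that 2 wt mice allow), without wt 3 and wt 4 they turned to 0.30 and 0.27, and with the length trend removed they were −0.43 and −0.48. With 1 wt mouse left out they lay between −0.50 and −0.08 and between −0.54 and −0.11. In TKO against Zmat3-/- mice the 3 ratios differed by 0.05, −0.02 and −0.03 (exact permutation p = 0.714 or above).

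**Figure D5:**
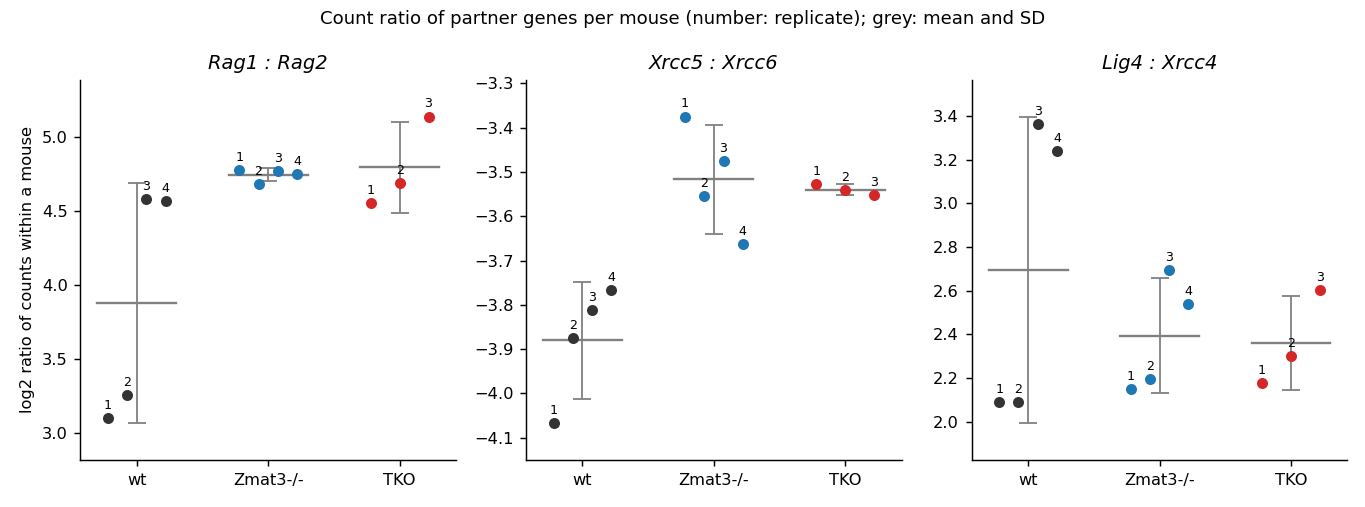
Log2 ratio of the counts of 2 partner genes within each mouse, with points numbered by replicate and the mean and SD of each genotype in grey (vertical axes do not start at 0). The Xrcc5 to Xrcc6 ratio of every mutant mouse exceeded that of every wt mouse, while the other ratios split the wt mice into pairs. Ratios of any other gene pairs were not examined.

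No partner pair passed the threshold with a positive correlation over the 11 mice as measured. There, in log2 CPM, Pearson's r was −0.17 for Rag1 with Rag2 (Spearman's rho 0.04, permutation p = 0.624 and 0.924) and 0.23 for Xrcc5 with Xrcc6 (rho 0.25, permutation p = 0.504 and 0.471). Centred on the mean of each genotype, the r of Xrcc5 with Xrcc6 was 0.75 (permutation p = 0.00624), and with the length trend removed it was −0.20 (permutation p = 0.575). It was −0.84 for Lig4 with Xrcc4 (rho −0.72, permutation p = 0.00222 and 0.0166, adjusted over 4 pairs 0.00888 and 0.0663) and −0.81 for Rag1 with Dntt (rho −0.60, permutation p = 0.00676 and 0.0569, adjusted 0.0135 and 0.114). Both passed the threshold through wt mice. Without wt 3 and wt 4, the mice farthest from the median of Lig4, the former was −0.51 (permutation p = 0.167), and without wt 1 and wt 2 it was −0.83 (rho −0.70, permutation p = 0.00537). For Rag1 with Dntt, without wt 1 and wt 2, the farthest from the median of Rag1, r was −0.14 (permutation p = 0.748). With the length trend removed the r of Rag1 with Dntt turned to 0.65 (permutation p = 0.0319). Within the 7 mutant mice r was −0.45 for Lig4 with Xrcc4 and 0.22 for Rag1 with Dntt. Among 9072 genes with a mean of at least 10 CPM, those most like Rag1 over the 11 mice were Mbnl2, Atrn, Akap11, Ptprc and Kmt2b, at r of 0.994 to 0.995 and at 0.937 to 0.9747 without wt 1 and wt 2, with transcripts of 5561 to 9364 bases. Of the members, Prkdc (r 0.97) and Dclre1c (r 0.93) were most like Rag1, and 4.92% and 13.2% of all these genes were more like it. Those most like Dntt were Actr10, Fas, Rtf2, Cript and Pik3ip1, at r of 0.957 to 0.986.

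With all mice, no other gene listed for the repair of double-strand breaks was called. Of the accessory end-joining factors (polymerases, end-processing enzymes and adaptors) 0 of 11 were called in any comparison, with median log2FC of −0.29 in TKO and −0.18 in Zmat3-/- against wt mice beside −0.04 and −0.03 for all genes. The smallest p among them was that of Cyren, an inhibitor of end joining that binds Ku, which was at 13.9 to 16.4 CPM in wt, 9.42 to 11.9 in Zmat3-/- animals and 9.87 to 12.5 in TKO mice (log2FC −0.48 and −0.41, adjusted p = 0.11 and 0.433, edgeR). Of the double-strand break response genes, which include Atm and Trp53bp1, 0 of 13 were called, with Shld2 at 0.36 and Rnf168 at −0.26 in Zmat3-/- against wt mice. Of the alternative end-joining genes 0 of 7 were called, and Parp1, which senses breaks, was at 129 to 139 CPM in wt, 145 to 169.7 in Zmat3-/- animals and 151 to 177 in TKO mice (0.23 and 0.24). Without wt 1 and wt 2, calls in Zmat3-/- against wt mice were 2 higher and 1 lower of the 11 accessory factors, 5 lower of the 13 response genes and 1 higher and 1 lower of the 7 alternative genes, beside 33.0% of all genes, and in TKO against wt mice 0 of each list, beside 8.15%. Without wt 3 and wt 4 the 3 lists had 8 lower, 6 higher and 4 lower, and 3 higher and 2 lower in Zmat3-/- mice, and 6 lower, 5 higher and 3 lower, and 2 higher and 2 lower in TKO mice, beside 56.1% and 43.6% of all genes called. With the length offset 1 accessory factor and 1 response gene were called lower in Zmat3-/- mice and 0 in TKO mice, beside 3.38% and 0.618% of all genes.

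Of 12 transcription factors that act on the Rag genes or T cell development 0 were called. Foxo1, known as an activator of Rag transcription, was at 59.6 to 68.8 CPM in wt, 72.9 to 86.6 in Zmat3-/- animals and 77.1 to 89.3 in TKO mice, so that no mutant mouse reached down to the wt range, as in 7.04% of all genes tested with Zmat3-/- higher and 6.78% with TKO higher. It was named as having 1 of the 2 smallest p of the list. The log2FC of Foxo1 was 0.32 and 0.37 (SE 0.0933 and 0.113, adjusted p = 0.152 and 0.362, edgeR). Tcf12, which encodes the E protein HEB, was at 187 to 480 CPM in wt and 448 to 602 CPM in the mutant mice (0.64 and 0.59). Without wt 1 and wt 2, 3 of these 12 were called in Zmat3-/- against wt mice, 2 higher and 1 lower, and 0 in TKO against wt mice, beside 33.0% and 8.15% of all genes. Without wt 3 and wt 4 the calls were 7 higher and 1 lower in Zmat3-/- and 6 higher in TKO mice, beside 56.1% and 43.6% of all genes, and with the length offset 0 in both.

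With all mice, no marker of a thymocyte stage was called. Of the double-positive markers 0 of 10 were called, with a summed level of 6575 to 7942 CPM in wt, 6181 to 7401 in Zmat3-/- animals and 6767 to 7810 in TKO mice. Of the double-negative markers 0 of 10 were called (242 to 396, 340 to 388 and 350 to 503 CPM), of the mature single-positive markers 0 of 10 (595 to 657, 528 to 589 and 538 to 600 CPM) and of the B cell markers 0 of 9 tested (70.1 to 136, 68.9 to 88.8 and 57.9 to 89.3 CPM). No marker was at 0 in all mice. Without wt 1 and wt 2, 3 double-positive markers were called lower in Zmat3-/- and 1 in TKO against wt mice, 1 double-negative marker was higher in each, 1 single-positive marker was higher and 1 lower in each, and 1 B cell marker was lower in Zmat3-/- mice, beside 33.0% of all genes called in Zmat3-/- and 8.15% in TKO mice. Without wt 3 and wt 4, the double-positive markers called were 2 higher and 3 lower in Zmat3-/- and 2 higher and 1 lower in TKO mice, the double-negative 1 higher and 3 lower and 1 higher, the single-positive 2 higher and 3 lower and 1 higher and 3 lower, and the B cell markers 4 lower and 3 lower, beside 56.1% and 43.6% of all genes. With the length offset 2 double-positive markers were lower in Zmat3-/- mice, and no other stage or B cell marker was called. Cd3e, a chain of the T cell receptor complex, was at 446 to 557 CPM in wt, 325 to 363 in Zmat3-/- animals and 312 to 412 in TKO mice (log2FC −0.47 in both, adjusted p = 0.0966 and 0.413, edgeR). The median log2FC of the 10 double-positive markers, Cd3e among them, was −0.02 in Zmat3-/- and −0.06 in TKO against wt mice. Markers of other cells in the suspension were not called with all mice, at 0 of 10 myeloid, 0 of 9 stromal and 0 of 5 erythroid genes tested. Their summed levels were 232 to 404, 324 to 436 and 198 to 505 CPM for myeloid, 162 to 259, 193 to 210.2 and 176 to 200.1 CPM for stromal and 867 to 8697, 1151 to 5754 and 2701 to 3730.2 CPM for erythroid markers in wt, Zmat3-/- and TKO mice. Without wt 1 and wt 2, 7 of 10 myeloid and 6 of 9 stromal markers were called higher and 0 lower in Zmat3-/- mice, beside 17.5% of all genes called higher, and 0 in TKO mice. Without wt 3 and wt 4, the calls were 2 higher and 2 lower for myeloid, 1 higher and 3 lower for stromal and 3 higher for erythroid markers in Zmat3-/- mice, and 1 stromal marker lower and 5 erythroid markers higher in TKO mice, beside 27.4% of all genes called higher and 28.7% lower in Zmat3-/- and 22.0% and 21.7% in TKO mice. With the length offset 2 myeloid markers were called higher in Zmat3-/- mice. The part of these cells in the members' values was not tested.

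Of 12 immediate-early and activation genes, 3 (Fosb, Nr4a1 and Dusp1) were called higher and 0 lower in each comparison with wt, beside 0.294% of all genes called in TKO and 0.763% in Zmat3-/- mice. With the length offset 5 were called higher and 2 lower in Zmat3-/- and 3 higher in TKO mice, beside 3.38% and 0.618% of all genes. Without wt 1 and wt 2 the calls were 9 higher and 3 lower in Zmat3-/- and 8 higher and 1 lower in TKO mice, beside 17.5% and 2.96% of all genes called higher, and without wt 3 and wt 4 they were 8 higher and 2 lower and 8 higher and 1 lower, beside 27.4% and 22.0% called higher. The summed level of the list was 358 to 680 CPM in wt, 1258 to 1624 in Zmat3-/- animals and 1326 to 1618 in TKO mice. Fosb was at 2.01 to 4.35 CPM in wt, 23.4 to 46.9 in Zmat3-/- animals and 19.8 to 55.8 in TKO mice. The part of these genes in the Rag2 and Xrcc5 values was not tested.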

How the data were processed

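The authors extracted total RNA from unsorted thymocytes, made libraries with an unstranded poly(A) kit (TruSeq RNA v2), and quantified paired-end reads with Salmon in nf-core/rnaseq against GRCm38.p6 and GENCODE vM25. The Salmon version is not given in the sources used here. They deposited estimated counts per gene for 11 mice, not normalized. All 598598 values are whole numbers, so rounding changed none. Symbols and transcript lengths came from GENCODE M21 on the same build, which matched all but 252 of 54418 genes.

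Genotypes were compared pairwise with edgeR 4.0.16 in R 4.3.3: TMM, a minimum of 20 counts (at the size of the smallest library) in a number of mice equal to the smaller group, Xist, chromosome Y, rRNA and immunoglobulin pseudogenes left out, quasi-likelihood F-test, Benjamini-Hochberg adjustment. No called member reached the study's absolute log2FC of 1.5 in any fit. The study adjusted for sex and surrogate variables with DESeq2. The labels give no sex, so Xist, 1 surrogate variable (sva 3.50.0) and DESeq2 1.42.0 were alternatives. Standard errors were derived from log2FC and F. The length trend was a loess (span 0.3) of each library's log2 CPM, less the mean of the libraries, on log2 length of the longest transcript. Two-sided exact permutation tests were used for count ratios, and correlations were tested by 100000 permutations. At 3 counts, the floor, the smallest library shows 0.174 CPM and the largest 0.0367, which covers counting error only. Scripts were tested on simulated data.

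The 10 genes and all gene lists were chosen with earlier results of these data known. Named from each other list were up to 4 called genes with the smallest p, or the 2 with the smallest p where none was called, with the targeted genes and the 5 genes most like Rag1 and Dntt. A gene that this rule names is not reported here. B230118H07Rik, Desi1, Tmem167 and Suv39h2 were named because they overlap a member.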

Additional observations from a re-analysis of the deposited data

How the results depend on the processing

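Of 560 values of log2FC for single genes under the alternatives, 487 kept their direction and their side of the threshold, 48 reversed and 28 passed the threshold where the value from all mice had not, 3 of which were among those reversed, and the cause was not tested. The members called numbered 2 with DESeq2 in Zmat3-/- against wt mice, 2 and 5 with 1 surrogate variable in TKO and Zmat3-/- against wt mice, 1 with the length offset in Zmat3-/- mice, 2 and 6 without wt mice 1 and 2, and 4 and 6 without wt mice 3 and 4. RLE factors, other filters, all gene classes, all genotypes in one fit and each mouse left out left the count at 0 and all 56 medians within the spread of the main values. Genes called overall in TKO, Zmat3-/- and TKO against Zmat3-/- mice numbered 39, 103 and 29, against 381, 1085 and 73 with DESeq2, 216, 235 and 16 in one fit of all genotypes, 2378, 5102 and 35 with 1 surrogate variable, 16, 12 and 21 with the replicate block, and 61, 55 and 90 without a filter.

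Reversed with the surrogate variable were Dclre1c (0.019) and Nhej1 (0.035) in Zmat3-/- against wt mice and Dclre1c (−0.041) and Prkdc (−0.0098) in TKO against Zmat3-/- mice. With the length offset these were Dclre1c in TKO against Zmat3-/- (−0.013), Dntt (0.078 in TKO, 0.077 in Zmat3-/-) and Prkdc (−0.14, −0.16) against wt, and Nhej1 (0.17) in Zmat3-/- mice. With Xist as a covariate it was Dclre1c (0.10, 0.18). Without wt mice 1 and 2 these were Dntt (0.10, 0.12), Nhej1 (0.083, 0.33), Prkdc (−0.37, −0.45), Rag1 (−0.11, −0.25) and, in Zmat3-/- mice, Xrcc6 (0.10). Without wt mice 3 and 4 they were Dclre1c (1.21, 1.18), Lig4 (0.14, 0.21) and Xrcc4 (−0.14, −0.10).

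The labels do not say that replicate numbers pair the mice, and the values do not settle it. Correlations of same-numbered mice were 0.07 to 0.39, 0.09 to 0.32 and −0.0029 to 0.17 in the 3 comparisons. Of the mice, 4 of 6, 4 of 8 and 3 of 6 fitted their own number best. With the replicate block 0 members were called in each comparison. Dclre1c reversed (0.58 in TKO and 0.21 in Zmat3-/- against wt), as did Dntt (0.0010 in TKO against Zmat3-/-) and the Lig4 to Xrcc4 ratio in TKO against Zmat3-/- (0.014). Under the block the Xrcc5 to Xrcc6 difference was 0.38 in TKO and 0.36 in Zmat3-/- mice and that of Rag1 to Rag2 0.87 in Zmat3-/- mice, in designs too small to pass the threshold. Without wt mice 1 and 2 these were 0.25, 0.27 and 0.17, and without wt mice 3 and 4 they were 0.43, 0.45 and 1.57, where the Lig4 to Xrcc4 difference reversed (0.27 in TKO and 0.30 in Zmat3-/- mice). With the length trend removed the Xrcc5 to Xrcc6 difference in TKO mice was 0.42 and missed the threshold.

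With 1 mouse left out at a time, log2FC ranged against wt from −0.38 to 0.25 (TKO) and −0.39 to 0.23 (Zmat3-/-) for Dclre1c, −0.052 to 0.47 and −0.13 to 0.39 for Prkdc, and in Zmat3-/- mice −0.18 to 0.0072 for Xrcc6 and −0.23 to 0.087 for Nhej1. In TKO against Zmat3-/- mice it ranged from −0.056 to 0.011 for Dntt, −0.034 to 0.13 for Dclre1c and −0.031 to 0.18 for Prkdc. Ratio differences ranged from 0.61 to 1.10 for Rag1 to Rag2 in Zmat3-/- against wt, past the threshold without any 1 wt mouse but not without any 1 Zmat3-/- mouse (exact permutation p = 0.171), and −0.12 to 0.17 in TKO against Zmat3-/-, for Xrcc5 to Xrcc6 from 0.28 to 0.38 in TKO and 0.30 to 0.41 in Zmat3-/- against wt and −0.072 to 0.025 in TKO against Zmat3-/-, and for Lig4 to Xrcc4 from −0.15 to 0.066 in TKO against Zmat3-/-. The correlation of Rag1 with Rag2 ranged from −0.32 to 0.10 and that of Rag1 with Dntt from −0.87 to −0.71.

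The correlation of Rag1 with Rag2 was 0.35 centred within genotype, 0.44 in the 7 mutant mice and 0.61 without wt mice 1 and 2. That of Rag1 with Dntt was 0.65 with the length trend removed, 0.22 in the mutant mice and −0.14 without wt mice 1 and 2. That of Lig4 with Xrcc4 was −0.45 in the mutant mice. That of Xrcc5 with Xrcc6 was 0.75 centred within genotype, past the threshold (permutation p = 0.00624), and −0.20 with the length trend removed. The length offset, the pairs of wt mice left out and the mutant mice alone were chosen after seeing the data. Nhej1 rested on as few as 88 counts in a library.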
